A study of Mus musculus with 24 samples.

Results

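Retained introns are introns that stay in polyadenylated RNA, and the 584 introns described here were those with the highest retention in wild-type (WT) mouse embryonic stem cells (ESCs). Retention was measured as PSI (percent spliced in), the percent of reads over an intron's splice sites that came from RNA still holding the intron. An intron was taken when its mean PSI over the 3 WT ESC samples was at least 20, it was longer than 150 bases and its coverage was sufficient in all 24 samples. Of 160806 introns in the splicing table, 60747 had that coverage and length, so that the 584 made up 0.961% of them, and they lay in 491 genes. The introns were thus chosen by their measured PSI in WT ESCs, and every comparison of retention with WT ESCs is therefore given as a description without a test. Just inside the limit were introns of Dhx57 (20.01), Neurl4 (20.03) and Prr13 (20.04), and just outside were introns of 5830418K08Rik (19.95), Pus1 (19.96) and Cuedc1 (19.99).

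Poly(A)+ RNA had been sequenced in cells of 2 genotypes at 4 stages of neural differentiation in culture, with 3 samples per group from independent differentiations. WT cells were compared with slow/slow cells, which are homozygous for the Polr2a R749H substitution in the largest subunit of RNA polymerase II, a form that elongates more slowly. The stages were ESCs kept in 2i medium with LIF, neural progenitor cells (NPCs) at day 7 in N2B27 medium, cells positive for the polysialylated form of NCAM (PSA-NCAM+ cells) purified on day 10, and neurons that had been replated on day 7 and grown for 14 days more. The study's methods describe slow/slow cells as dying at plating densities that suited WT cells, but do not give the density at which the sequenced slow/slow cultures were plated. If it differed from that of WT cells, density and genotype cannot be told apart after the ESC stage. The mutation is a single amino acid exchange that read counts do not show, and Polr2a itself had mean levels of 717 ± 26.3 CPM (read counts scaled to the library total, SD, n = 3) in ESCs of the WT and 707 ± 49.3 CPM in ESCs of the mutant.

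During splicing, an intron is removed in 2 cuts, at the 5′ splice site (the donor) and at the 3′ splice site (the acceptor). An intron that is short, GC-rich or flanked by weak splice sites is more often left in the RNA. Retained introns in coding genes usually bring an early stop codon, and such RNA is either held in the nucleus, where it may be spliced later, or exported and broken down by nonsense-mediated decay. Programmes of retention are known in neurons, in blood cells and in genes of the splicing machinery itself. In these bulk samples, less RNA per cell and fewer cells of a type cannot be told apart.

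Library totals ranged from 32974432 to 104466886 counts, and the median number of reads behind a PSI value of the 584 introns was between 83.0 and 253.7 per sample. Replicates correlated over the 584 introns with r from 0.906 to 0.982. The summed level of the measured pluripotency markers (5 of 6) was 5013 to 5734 CPM in ESCs of either genotype and 75.5 to 127 CPM in neurons, while the neuron markers (5 of 6) summed to 2316 to 2543 CPM in WT and 1721 to 1911 CPM in slow/slow neurons. Marker levels differed between genotypes at each later stage and are given with the comparisons. In WT NPCs and WT PSA-NCAM+ cells pluripotency markers were still at 1295 to 1961 CPM. Neuron markers summed to 63.3 to 88.4 CPM in these cells and to 197 to 242 CPM in WT ESCs. Most of these sums came from Stmn2 and Tubb3, at 174 and 40.9 CPM in WT ESCs and 64.9 and 15.8 CPM in WT NPCs. The other measured ones, Syt1, Snap25 and Rbfox3, were higher at both stages than in WT ESCs, at no more than 3.45 CPM. Replicate 1 of the PSA-NCAM+ cells stood apart in both genotypes. Its PSI was higher than the mean of its group's other replicates by a median of 3.32 points in WT and 3.85 points in slow/slow cells, and the medians and counts at this stage are also given without it.

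The introns of 6 genes show the kinds of sequence found among the members and the main patterns of retention. They are printed 5′ to 3′ on the strand of their gene, in lower case with the first and last pair of bases in capitals, as the annotated transcripts that span them give them (GENCODE release M21, GRCm38 assembly). Cyb5r1, which encodes a cytochrome b5 reductase, had its largest difference between genotypes in NPCs (chr1:134406054-134406312, 259 bases, intron 1 of 8). Ambra1, an autophagy regulator, rose towards neurons and has no in-frame stop in its intron (chr2:91772438-91772710, 273 bases, intron 7 of 18). Cirbp, the cold-inducible RNA-binding protein, fell towards neurons (chr10:80170765-80170981, 217 bases, intron 6 of 6). Sdr39u1, a short-chain dehydrogenase, rose (chr14:55898013-55898242, 230 bases, intron 5 of 5). H2-Ke6, a steroid dehydrogenase gene, was lower in slow/slow neurons (chr17:34026226-34026395, 170 bases, intron 10 of 10). Lepre1, a collagen prolyl 3-hydroxylase, was retained at 100% in every sample (chr4:119248004-119248183, 180 bases, intron 16 of 16).
Cyb5r1: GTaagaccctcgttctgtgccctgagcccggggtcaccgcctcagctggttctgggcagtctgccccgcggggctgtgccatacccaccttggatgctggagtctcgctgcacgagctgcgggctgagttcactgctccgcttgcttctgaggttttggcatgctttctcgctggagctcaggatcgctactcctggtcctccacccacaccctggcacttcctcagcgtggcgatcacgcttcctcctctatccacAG
Ambra1: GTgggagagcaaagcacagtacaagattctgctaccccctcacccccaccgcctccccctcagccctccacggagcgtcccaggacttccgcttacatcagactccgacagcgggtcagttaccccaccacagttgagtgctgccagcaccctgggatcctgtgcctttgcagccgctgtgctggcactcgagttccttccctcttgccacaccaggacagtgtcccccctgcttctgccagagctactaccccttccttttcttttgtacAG
Cirbp: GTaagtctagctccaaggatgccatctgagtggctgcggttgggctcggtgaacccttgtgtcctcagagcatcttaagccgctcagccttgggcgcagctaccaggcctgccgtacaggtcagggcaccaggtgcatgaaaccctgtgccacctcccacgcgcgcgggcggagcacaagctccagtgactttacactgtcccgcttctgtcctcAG
Sdr39u1: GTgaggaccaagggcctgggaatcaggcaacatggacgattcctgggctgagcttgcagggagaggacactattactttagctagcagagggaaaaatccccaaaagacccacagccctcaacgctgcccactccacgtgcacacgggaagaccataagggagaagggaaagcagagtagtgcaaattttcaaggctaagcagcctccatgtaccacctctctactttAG
H2-Ke6: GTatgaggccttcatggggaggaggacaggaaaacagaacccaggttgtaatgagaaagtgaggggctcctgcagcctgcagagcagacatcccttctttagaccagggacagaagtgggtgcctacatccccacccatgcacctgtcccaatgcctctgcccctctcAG
Lepre1: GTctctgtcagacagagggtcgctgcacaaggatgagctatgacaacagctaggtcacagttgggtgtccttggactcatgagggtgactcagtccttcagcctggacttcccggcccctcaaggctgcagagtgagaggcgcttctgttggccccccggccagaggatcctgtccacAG

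These introns were between 52.6% GC (Sdr39u1) and 62.5% GC (Cyb5r1). The 229 members that an annotated transcript spans had a median GC content of 51.4%, against 48.2% for 2757 other covered introns with a sequence. The members were short, with a median length of 777.5 bases against 1425 bases for the other 60163 covered introns. Of the members 124 (21.2%) were under 300 bases, against 9.84% of the others. A length that is a multiple of 3 was as common in both, at 34.1% of members and 33.5% of other introns.

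Of 584 members, 564 were matched to a GENCODE intron. A transcript that runs through the intron was annotated for 229 of them (40.6%), against 4.65% of other introns. One labelled as retaining an intron spanned 140 (24.8%). An exon of a coding or nonsense-mediated decay transcript spanned 91 (16.1%), against 0.43% of other introns. Among 115 matched members with a WT ESC PSI of 50 or more, such an exon spanned 39 (33.9%). Of the introns printed above, it spanned those of Ambra1, H2-Ke6 and Lepre1. Last introns made up 23.6% of members and 8.64% of other introns, and 57.4% of the members with a WT ESC PSI of 50 or more. The exon of another gene on the opposite strand overlapped 12.6% of members and 4.04% of others, and whether strand was used in counting was not stated. Where it was not, reads of such a neighbour and of the retained intron cannot be told apart.

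In coding frame, most members carried a stop codon. An in-frame stop was found in 181 of the 190 members with a sequence and a reading frame (95.3%), against 98.0% of 2613 other introns, with the stop at a median of codon 13 of the intron. The 9 without a stop were in Abl2, Ambra1, Cyb5r1, Dus3l, Gtpbp2, Npepl1, Pja1, Tssc4 and Uspl1, and 5 of these had a length that is a multiple of 3, so that the retained intron extends the reading frame. By value, PSI in WT ESCs and WT neurons was 35.0 and 63.0 for Ambra1, 20.3 and 45.4 for Dus3l, and 22.3 and 8.17 for Gtpbp2.

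Among the 229 sequences, 221 began with GT, 6 with GC and 2 with AT. The letters GTATCC or ATATCC at the donor, which mark introns handled by the minor (U12-type) spliceosome, stood at the start of 6 members (2.62%) and of 26 of the 2757 other introns (0.943%). A match of letters is a description and does not show which spliceosome acts. The donors of these 6 are shown because minor introns are known for slow splicing, and these introns, like those without a stop, were named after their values had been seen. Each line holds the last 10 exon bases and the first 12 intron bases, with the first 6 intron bases in capitals.
Nr2c2ap: tgcccttcagATATCCtgcctg
9930104L06Rik: atggaagctcATATCCttcgag
2410002I01Rik: gagatcgccaGTATCCttctgc
Pcyt2: gacctgttccGTATCCtctgct
Trafd1: aaacaccaggGTATCCactggg
Pja1: attattccagGTATCCtccaag

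Their retention had no common course over the stages. Mean PSI went from 27.4 in WT ESCs to 39.3 in WT neurons for the intron of Nr2c2ap, and from 27.9 to 10.0 for that of Trafd1. The intron of Pja1, a ubiquitin ligase gene, was between 96.9 and 99.4 in every group. Among the 6 members that began with GC, mean WT ESC PSI was between 22.8 (Isca2) and 96.0 (Scmh1).

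The median retention of the members changed little from ESCs to NPCs and was lowest in WT neurons. The median PSI per sample was between 28.8 and 32.3 in WT ESCs, 28.5 and 29.4 in WT NPCs, 24.3 and 30.9 in WT PSA-NCAM+ cells and 18.5 and 21.2 in WT neurons. In slow/slow cells the ranges were 31.1 to 33.3, 29.1 to 30.8, 21.9 to 30.2 and 21.6 to 24.3. Without replicate 1 the PSA-NCAM+ medians were 24.3 and 24.7 in WT and 24.2 and 21.9 in slow/slow cells, the latter within the range of slow/slow neurons. The lowest slow/slow neuron sample was thus above the highest WT neuron sample. Of the 584 introns, 287 (49.1%) still had a mean PSI of at least 20 in WT neurons and 329 (56.3%) in slow/slow neurons, while 131 were under 10 in WT neurons.

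**Figure D1:**
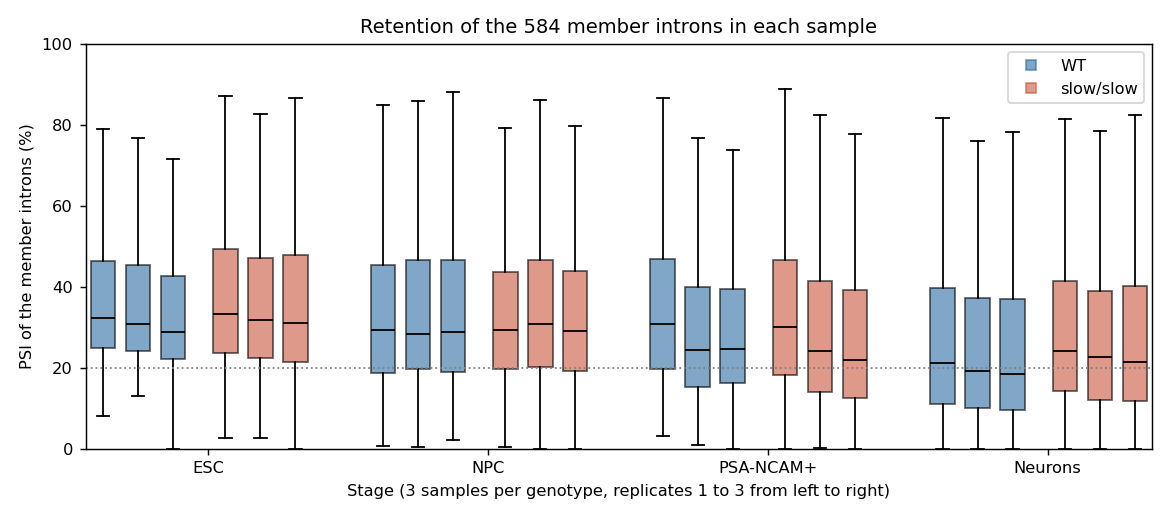
PSI (percent) of the 584 introns in each of the 24 samples, with boxes from the lower to the upper quartile, a line at the median, whiskers to the farthest value within the usual multiple of the box height, and values beyond the whiskers not drawn. WT samples are blue and slow/slow samples red, and the dotted line marks the PSI of 20 that WT ESC means had to reach. Medians of the neuron samples lie between 18.5 and 24.3, below those of all ESC and NPC samples.

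Since introns were taken for high values in WT ESCs, some decline in any other group comes with the choice. Taken the other way, the 459 covered introns with a mean PSI of at least 20 in WT neurons had a median of 33.5 in WT neurons and 26.9 in WT ESCs, and 150 of them were lower in WT neurons than in WT NPCs. Of the 584 members, 413 were lower in WT neurons than in WT NPCs, a comparison without the samples used for the choice. It is not free of the choice, since introns high in WT ESCs tend to be high in groups close to them. Some fall to neurons from WT NPCs or slow/slow ESCs can therefore also come with the choice, and its size was not tested. Introns below the limit had a median of 7.87 in WT ESCs and 3.997 in WT neurons, for 4158 introns with a WT ESC PSI of 5 to 20. That set was taken by WT ESC values as well, so part of its decline can also come with the choice. It is no separate sign of a decline.

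A difference in PSI between groups was counted as a change when it exceeded 10 points, the posterior probability that it had that sign exceeded 0.95, and every sample compared had at least 15 reads and passed a test of balance between the reads at both ends of the intron (p of at least 0.05). The posterior pools the replicates' posteriors, so that a spread between them widens it, and is not a p-value over replicates. All 584 members had at least 15 reads in every sample, but only 223 (38.2%) passed the balance test in all 24, against 83.2% of the other introns. Between 284 and 310 members could be tested in a given comparison, and those that failed are given by value alone. Since 56005 of the 60747 covered introns had a WT ESC PSI under 5, and could fall by little, the share of all introns changed is given only as a background.

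From WT NPCs to WT neurons, 106 of 287 testable members fell and 33 rose. Among all 54690 introns tested, 0.45% fell and 0.223% rose. The median difference was -7.28 points over the 584 members and -0.15 points over all covered introns. In each of the 139 changed members the samples of the groups did not overlap. This held for the changed members of every comparison, since a call already asks nearly as much, and is no further support. Among the tested introns the largest fall was in the last intron of Atp2a2, the calcium pump of the endoplasmic reticulum (mm9, chr5:122904314-122905901, intron 20 of 20). Its PSI was 100, 98.4 and 96.3 in the WT NPC samples and 22.1, 23.5 and 22.7 in the WT neuron samples. Slow/slow neurons were higher than WT neurons, at 39.2, 35.0 and 34.3, and lay far below the samples of slow/slow ESCs and NPCs.

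The next falls in size among tested introns were in Add1, 2310022A10Rik (94.3 ± 0.59 to 44.7 ± 2.66), Taz (87.3 ± 5.15 to 45.4 ± 2.62), an intron of 9430015G10Rik (62.9 ± 2.75 to 22.0 ± 4.66), Ikbkb (44.4 ± 2.20 to 6.43 ± 2.94) and Med22 (each SD, n = 3, as for all such values here). In Add1, which encodes the membrane-skeleton protein alpha-adducin (mm9, chr5:34971163-34971784, intron 14 of 15), PSI was 49.5, 67.8 and 71.8 in WT NPCs and 2.5, 3.17 and 3.00 in WT neurons. In Med22, a subunit of Mediator (mm9, chr2:26761514-26763612, intron 3 of 3), mean PSI was 56.9 ± 2.65 in WT NPCs and 21.6 ± 1.49 in WT neurons. Its WT PSA-NCAM+ samples were at 84.7, 77.3 and 76.3. Cirbp fell from 30.3 ± 1.18 to 5.23 ± 0.45, and its slow/slow neurons were at 9.59 ± 1.16. The intron of the synaptic vesicle gene Vamp2 (mm9, chr11:68903530-68904151, intron 4 of 4) fell from 28.2 ± 1.13 to 1.23 ± 0.23.

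Gabbr1, a subunit of the GABA-B receptor, held 4 member introns, as many as any gene. For its intron 12 of 22 (mm9, chr17:37199722-37200274) PSI was 25.9, 31.8 and 29.1 in WT NPCs and 2.86, 1.82 and 2.19 in WT neurons, a difference of -26.6 points. Introns 4 and 5 were at 94.1 ± 3.50 and 89.9 ± 6.16 in WT NPCs and at 12.5 ± 1.25 and 10.6 ± 0.25 in WT neurons, falls larger than that of Atp2a2, but failed the balance test and were not tested. These introns share a gene and are not independent of each other. The largest differences from WT ESCs to WT neurons, by value only, were in a pair of introns of the chromatin reader Zmynd8, from 96.1 to 1.33 and from 96.1 to 6.32. The former (mm9, chr2:165640970-165646041) was at 37.7 ± 1.60 in WT NPCs. An intron of the imprinted non-coding RNA Meg3 (mm9, chr12:110784753-110787688) was at 97.8 ± 0.19 in WT NPCs and 17.1 ± 1.29 in WT neurons, likewise without a test.

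**Figure D2:**
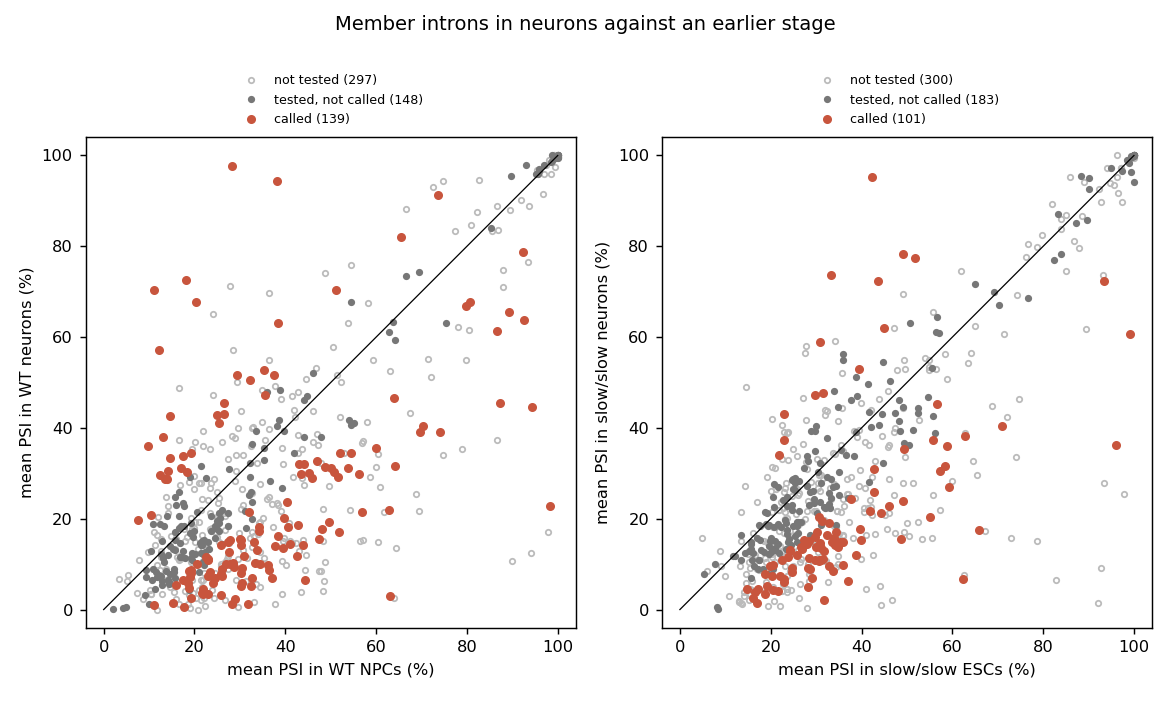
Mean PSI (percent, n = 3 samples) of the 584 introns in neurons (vertical axis) against an earlier stage (horizontal axis), for WT neurons and NPCs on the left and slow/slow neurons and ESCs on the right. Red points are introns counted as changed, dark points tested introns that were not, and open points introns that failed the read or balance limits, with the diagonal marking equal PSI. Most changed introns lie below the diagonal, 106 of 139 on the left and 88 of 101 on the right.

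Retention rose in a smaller group, and several of its members overlap a neighbouring gene. Bicd2, an adaptor of the dynein motor, had its last intron (mm9, chr13:49478623-49480339) at 12.1, 14.1 and 7.06 in WT NPCs and at 69.7, 71.5 and 69.9 in WT neurons. In Hus1, part of a DNA damage checkpoint clamp (mm9, chr11:8910628-8911061, intron 1 of 8), the values were 27.6, 21.1 and 12.1 against 67.1, 61.0 and 75.4. No exon of another gene was annotated over either intron. Ambra1 rose from 38.4 ± 2.62 to 63.0 ± 3.98, and Pan3, a subunit of a poly(A) nuclease, from 35.4 ± 2.95 to 52.8 ± 1.73.

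In other introns that rose, an exon of a neighbouring gene overlaps and the host gene fell. The intron of Pdzk1, a scaffold protein of membrane transporters, overlaps Gpr89 and rose from 28.3 ± 1.12 in WT NPCs to 97.8 ± 0.98 in WT neurons, while Pdzk1 itself went from 7.47 to 0.214 CPM. That of the kinesin light chain gene Klc3 overlaps the DNA repair helicase gene Ercc2 and rose from 38.1 ± 2.06 to 94.5 ± 1.50, with Klc3 at 27.7 and 1.53 CPM. Ddb2, a sensor of UV damage whose intron overlaps Acp2, rose from 18.2 ± 2.91 to 72.6 ± 2.98, with the host at 20.6 and 5.49 CPM. In Sdr39u1, which overlaps Khnyn, PSI rose from 73.7 ± 3.21 to 91.4 ± 3.47 while the host went from 22.6 to 7.94 CPM. All 4 hosts fell by the edgeR test described with the host genes, with log2 changes of -5.07, -4.17, -1.91 and -1.51 in this order. The part of the neighbours' reads in these values was not tested.

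In slow/slow cells, the step from ESCs to NPCs changed few members. Of 291 testable introns, 15 fell and 3 rose, against a background of 0.0433% and 0.0126% of 55393 introns, and the median difference was -1.60 points. The intron of Klc3 fell from 87.2 ± 1.64 to 60.6 ± 2.27 and that of Pdzk1 from 90.05 ± 7.33 to 57.2 ± 2.84, both with the overlap named above. In Lrrc41, a leucine-rich repeat protein gene, intron 8 of 9 (mm9, chr4:115768520-115768747) fell from 38.8 ± 4.16 to 19.8 ± 0.49, and it overlaps Rad54l. Sdr39u1 rose, from 42.5, 42.1 and 42.0 in slow/slow ESCs to 69.0, 62.1 and 76.4 in slow/slow NPCs. The other rises were in 0610011F06Rik (48.2 to 61.8) and Sdccag3 (23.0 to 33.3). For 0610011F06Rik the posterior was under the limit without slow/slow NPC replicate 1 or 3 or slow/slow ESC replicate 2 or 3, with differences of 10.3 to 13.9 points. For Sdccag3 the difference was 8.99 points without slow/slow NPC replicate 1 and 9.19 without slow/slow ESC replicate 3.

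From slow/slow ESCs to slow/slow neurons 88 of 284 testable members fell and 13 rose, with 0.266% and 0.145% of 55332 introns as the background. The median difference was -7.35 points, and 427 of the 584 members were lower in neurons. Atp2a2 fell from 96.1 ± 0.66 to 36.2 ± 2.65, Add1 from 62.4 ± 3.17 to 6.67 ± 0.95 and Med22 from 65.9 ± 2.48 to 17.6 ± 1.23. The last intron of Srr, the gene of the serine racemase that makes D-serine (mm9, chr11:74722346-74722497, overlapping Tsr1), was at 98.9, 99.6 and 98.9 in slow/slow ESCs and 63.2, 56.6 and 62.4 in slow/slow neurons. The host rose from 3.97 to 28.9 CPM. Among the rises were Sdr39u1 (42.2 to 95.3), Ddb2 (33.4 to 73.8), Bicd2 (49.2 to 78.4) and Ambra1 (43.7 to 72.3).

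In ESCs, slow/slow and WT cells are compared by value only, since the WT samples chose the introns. The median difference over the 584 members was 0.0 points, with 290 higher and 287 lower in slow/slow ESCs, and 494 had a mean PSI of at least 20 there. The largest values in the direction of slow/slow cells were in Tsc2, a brake on mTOR signalling (22.9 in WT, 59.9 in slow/slow ESCs), Pdzk1 (61.8 and 90.05) and Bicd2 (24.9 and 49.2). In the other direction stood Ccdc111, a primase-polymerase gene (34.5 and 5.32), and Slc9a3r2, a scaffold of ion exchangers (36.8 and 7.67). Of these introns, those of Pdzk1 and Bicd2 passed the balance test in all samples and the others did not.

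In NPCs, 32 of 287 testable members were higher in slow/slow cells and 22 were lower. The background was 0.105% and 0.0963% of 55020 introns. Marker genes differed between these cultures. Pluripotency markers (5 of 6 measured) summed to 1887 to 1961 CPM in WT and 1114 to 1232 CPM in slow/slow NPCs, with Pou5f1 at 639 and 736 CPM and Esrrb at 478 and 93.1 CPM. Neural progenitor markers (4 of 5) summed to 37.5 to 38.9 CPM in WT and 124 to 166 CPM in slow/slow NPCs, with Pax6 at 4.30 and 40.9 CPM. Endoderm markers (5 of 5) were present in both, at 123 to 142 and 115 to 148 CPM, against 12.2 to 13.7 CPM in WT ESCs. Gata4 was at 60.9 (WT) and 68.45 CPM (slow/slow) in NPCs, but Afp at 0.158 and 0.977 CPM. Neuron markers (5 of 6) were at 78.9 to 88.4 and 228 to 265 CPM, with Tubb3 at 15.8 and 96.3 CPM but Snap25 and Rbfox3 under 1 CPM in both. The part of these differences in the changes of retention was not tested. The median difference over all members was 0.0033 points, with 292 higher and 287 lower. Cyb5r1 had the largest rise, with PSI at 26.5, 25.3 and 24.5 in WT NPCs and 60.8, 62.8 and 68.0 in slow/slow NPCs. The same intron was at 33.5, 36.9 and 32.6 in WT ESCs, 55.6, 54.5 and 55.2 in slow/slow ESCs, and between 15.9 and 25.5 in all neuron samples of both genotypes. In PSA-NCAM+ cells the WT samples were at 24.4, 25.9 and 25.6 and the slow/slow samples at 26.6, 56.1 and 49.7. The difference of 18.8 points in PSA-NCAM+ cells had a posterior of 0.925 and was not counted as a change, and slow/slow replicate 1 lay near the WT values. Its host gene did not pass the expression test in NPCs, with means of 131 (WT) and 141 CPM (slow/slow).

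Bicd2 was at 34.7, 53.3 and 60 in slow/slow NPCs and Hus1 at 56.4, 59.0 and 49.0, with the WT values of both given earlier. The intron of Rnf20, a ubiquitin ligase of histone H2B (mm9, chr4:49645084-49645236, intron 1 of 20, outside the coding sequence), was at 10.6, 12.2 and 6.35 in WT NPCs and 36.3, 50 and 32.7 in slow/slow NPCs. In Yipf2, a Golgi membrane protein gene (mm9, chr9:21396663-21396971), mean PSI was 12.2 ± 1.85 in WT and 41.7 ± 4.20 in slow/slow NPCs (the intron overlaps Carm1). The calls for Cyb5r1, Bicd2, Hus1, Rnf20 and Yipf2 held in all 12 alternatives run for them in NPCs.

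Lower in slow/slow NPCs was the intron of Ikbkb, a kinase of the NF-kappaB pathway (mm9, chr8:23779569-23780078, intron 13 of 21), at 46.9, 43.1 and 43.2 in WT and 20.6, 20.96 and 20.3 in slow/slow NPCs. Its host was higher in slow/slow NPCs (log2 1.16 ± 0.07, SE, FDR = 1.5e-10, edgeR's quasi-likelihood test). Mett11d1, a mitochondrial methyltransferase-like gene whose intron begins with GC, fell from 55.1 ± 6.07 to 32.0 ± 9.40. Taz, the X-linked tafazzin gene of cardiolipin remodelling, fell from 87.3 ± 5.15 to 64.7 ± 2.28, and Gcfc1 from 50.8 ± 4.84 to 28.8 ± 3.45. The intron of the chromatin remodeller gene Atrx (mm9, chrX:103042135-103042920, intron 16 of 34) was at 38.9, 29.1 and 27.2 in WT and 13.5, 10.8 and 8.63 in slow/slow NPCs. In neurons its values were 1.15 ± 0.36 in WT and 9.64 ± 3.27 in slow/slow cells, a difference under the limit.

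In PSA-NCAM+ cells 9 of 286 testable members were higher and 4 lower in slow/slow cells, against 0.0317% and 0.00933% of 53613 introns. Without replicate 1 of both genotypes, an alternative chosen after seeing the data, 34 of 309 testable members changed, 19 higher and 15 lower, against 0.0575% and 0.0413% of 55695 introns. In limma, which tests over replicates, 8 members changed in the fit of all 24 samples, 0 in the PSA-NCAM+ samples alone (55 at an unadjusted p under 0.05) and 6 when the replicate number was kept as a block, which pairs these samples. Among all 53613 introns these fits called 12 higher and 4 lower, 0 either way, and 8 higher and 3 lower. By the posterior, 29 members changed without slow/slow replicate 1, against 23 higher and 26 lower of 53846 introns. Without WT replicate 2, 23 members changed, against 17 higher and 17 lower of 53733 introns. Pluripotency markers summed to 1295 to 1778 CPM in WT and 678 to 705 CPM in slow/slow cells of this stage, neural progenitor markers to 68.5 to 101 and 262 to 375 CPM, and neuron markers to 63.3 to 88.3 and 216 to 482 CPM. The 4 markers of cells with polysialylated NCAM summed to 28.9 to 32.7 CPM in WT and 40.0 to 92.3 CPM in slow/slow cells. The part of these levels in the result was not tested.

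Those that changed included a pair of neighbouring introns of Bace1, the beta-secretase gene, which share a transcript and overlap the predicted gene Gm49338. In intron 6 of 8 (mm9, chr9:45666585-45666992) PSI was 17.1, 27.3 and 29.9 in WT and 47.1, 56.0 and 49.0 in slow/slow PSA-NCAM+ cells, and in intron 7 of 8 (mm9, chr9:45667143-45667361) it was 14.5, 34.4 and 25.2 against 42.5, 55.4 and 47.6. The intron of Zfp295, a zinc finger gene, was at 51.7, 52.9 and 54.0 in WT and 74.5, 78.6 and 71.0 in slow/slow cells, and was higher in slow/slow neurons too (61.1 ± 0.97 against 41.7 ± 4.60). Sdr39u1, Ambra1 and Bicd2 were also higher in slow/slow PSA-NCAM+ cells, by 15.5, 15.1 and 25.6 points.

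Among the introns counted as changed at this stage, the largest fall was in Sars, the seryl-tRNA synthetase gene (mm9, chr3:108230308-108230778, intron 10 of 11), with 47.3, 37.3 and 37.8 in WT and 23.6, 13.7 and 17.4 in slow/slow cells. Falls were also found in 9430015G10Rik (66.3 ± 0.76 to 53.2 ± 1.32), in the F-box gene Fbxl6 (31.5 ± 5.62 to 19.4 ± 0.56) and in Echdc2 (23.4 ± 1.18 to 13.3 ± 1.30). Without WT PSA-NCAM+ replicate 1 the differences for Fbxl6 and Echdc2 were -8.84 and -9.40 points, short of the limit, and without replicate 1 of both genotypes they were -8.56 and -9.96 points. Without slow/slow replicate 3 that for Echdc2 was -9.38 points. For all 4 of these introns the host gene was also lower in slow/slow cells by the edgeR test in the fit of all 24 samples.

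In neurons, 22 of 310 testable members were higher and 9 lower in slow/slow cells. The background was 0.0808% and 0.0449% of 55684 introns. Over all 584 members the median difference was 2.04 points, with 381 higher and 197 lower, while the median over all covered introns was 0.00. By WT ESC PSI, 6 were higher and 1 lower of 59 tested members at 50 or more (median difference of all in that band 0.737 points), 11 and 3 of 89 at 30 to 50 (3.39 points) and 5 and 5 of 162 at 20 to 30 (1.82 points). Marker genes differed here too. Among the neuron markers, whose sums were given above, Snap25 averaged 208 (WT) and 60.2 CPM (slow/slow), but Tubb3 928 and 1191 CPM. Neural progenitor markers summed to 885 to 1058 CPM in WT and 1078 to 1249 CPM in slow/slow neurons, with Hes5 at 14.3 and 100.4 CPM. The oligodendrocyte lineage markers (4 of 4) summed to 63.8 to 86.1 and 40.4 to 62.1 CPM. Olig1 (38.4 and 0.218 CPM) and Olig2 (22.8 and 0.883 CPM) were lower in slow/slow neurons. Sox10 (0.935 and 7.07 CPM) and Pdgfra (9.74 and 40.85 CPM) were higher. The mesoderm markers (4 of 4) summed to 79.4 to 98.5 and 17.6 to 23.3 CPM. Most of this was T (76.8 and 6.97 CPM), while Kdr was higher (6.88 and 12.8 CPM). The astrocyte markers (4 of 4) summed to 30.8 to 39.4 and 9.64 to 12.2 CPM. Most of this was Aldh1l1 (31.95 and 7.28 CPM), while Aqp4 was higher (1.53 and 3.50 CPM). The part of these differences in the changes of retention was not tested. The level of Polr2a itself was 323 ± 13.6 CPM in neurons of the WT and 168 ± 8.68 CPM in those of the mutant.

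The largest rise was in Ogt, which encodes the enzyme that adds O-GlcNAc to proteins (mm9, chrX:98847548-98850962, intron 5 of 22). PSI was 19.9, 12.4 and 14.3 in WT and 56.4, 54.2 and 42.9 in slow/slow neurons. The level of Ogt did not pass the expression test (221 and 216 CPM, FDR = 0.84, edgeR). In the last intron of 2310022A10Rik (mm9, chr7:28365711-28366369), PSI was 41.6, 46.6 and 45.7 in WT and 73.7, 70.5 and 72.8 in slow/slow neurons, after values from 89.6 to 95.2 in every sample of the earlier stages. The intron of Nfatc4, a calcium-regulated transcription factor, was at 37.5 ± 7.42 and 61.9 ± 4.72, and its host was higher in slow/slow neurons too (log2 1.41 ± 0.23, SE, FDR = 3.2e-05, edgeR). The mitochondrial GTPase gene Guf1 (34.4 ± 2.64 and 56.3 ± 5.74) and Ttc14 (29.2 ± 1.19 and 49.7 ± 6.37) were higher as well.

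Among the 9 that were lower, 0610011F06Rik was at 72.1, 69.9 and 68.9 in WT and 48.5, 44.9 and 44.9 in slow/slow neurons. Rnf20, higher in slow/slow NPCs, was lower here, at 30.8, 39.2 and 38.4 in WT and 16.8, 15.4 and 14.6 in slow/slow neurons. Deb1 (42.5 ± 3.67 and 22.6 ± 3.83) and H2-Ke6 (43.0 ± 5.01 and 26.4 ± 0.75) were also lower, as was an intron of Meg3 (mm9, chr12:110782953-110783157, 62.2 ± 3.40 and 46.4 ± 4.89). The level of Rnf20 was 106 CPM in neurons of either genotype.

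**Figure D3:**
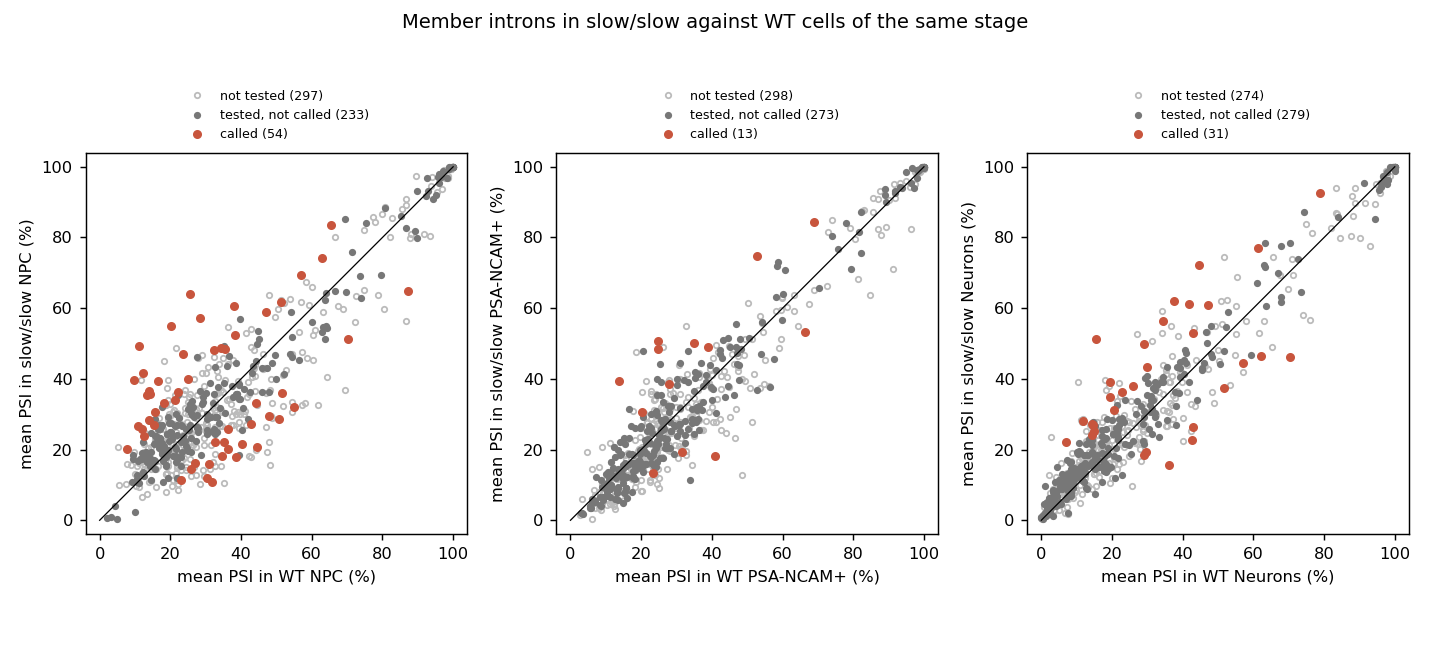
Mean PSI (percent, n = 3 samples) of the 584 introns in slow/slow (vertical axis) against WT cells (horizontal axis) at the NPC, PSA-NCAM+ and neuron stages. Red points are introns counted as changed, dark points tested introns that were not, and open points introns that failed the read or balance limits, with the diagonal marking equal PSI. Changed introns lie on both sides of the diagonal in NPCs, 32 above and 22 below, and mostly above it in neurons, 22 above and 9 below.

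**Figure D4:**
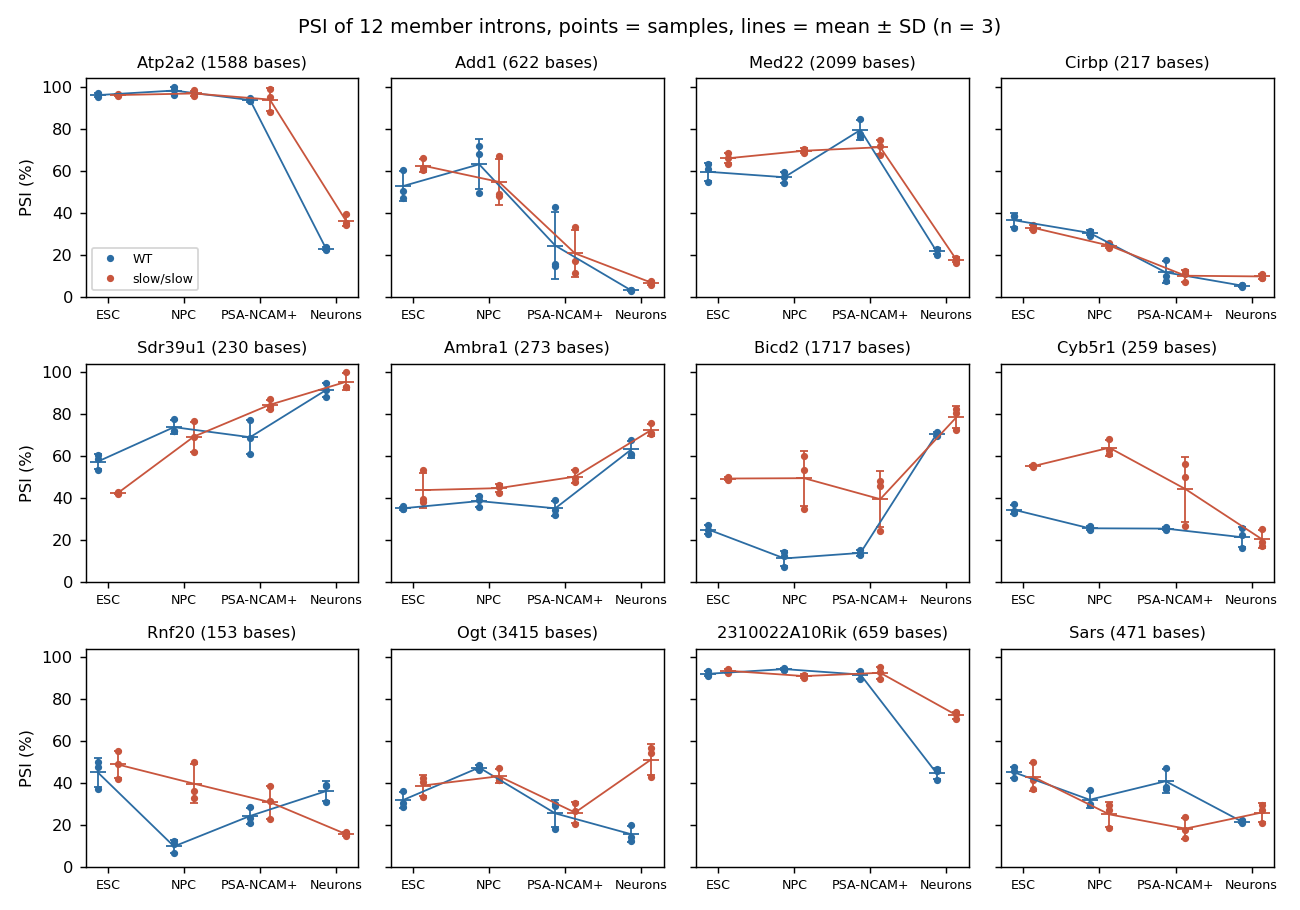
PSI (percent) of 12 introns over the 4 stages, with a point for each sample, lines through the group means and bars of 1 SD (n = 3), WT in blue and slow/slow in red. Atp2a2, Add1, Med22 and Cirbp fall towards neurons, Sdr39u1, Ambra1 and Bicd2 are highest in neurons, and Rnf20 has slow/slow above WT in NPCs and below it in neurons.

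In 26 of the 38 members with a WT ESC PSI of 90 or more every group mean was at least 90, while others, such as those of Zmynd8, Atp2a2 and Gabbr1 above, fell far. In 64 of the 584 members every group mean was at least 50. Of the 38, 36 were matched to the annotation and 23 of those were the last intron of their gene, while 11 overlapped an exon of another gene. A host gene with a mean under 1 CPM over all samples was found for 6 of the 38, and all 6 overlapped another gene. Among them were a pair of introns in 4930404N11Rik, which overlap Mfsd12, and a pair in Msmp, which overlap Rgp1, with PSI of 98.5 to 100 in every sample and group means of the hosts of at most 0.005 CPM. For these the reads cannot be assigned to the named host. The intron of Lepre1 was at 100 in all 24 samples with group means of the host of 22.7 to 81.4 CPM, and that of Xpo1, the nuclear export receptor, was at 99.0 to 100 and failed the balance test in every sample.

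Genes that act on RNA were represented in most of the lists examined, but few of their introns could be tested. Among SR proteins and related regulators, 5 of 142 covered introns (3.52%) were members, against 0.961% of all covered introns, and none passed the balance test in every sample of a comparison. These were in Acin1 (43.8 ± 2.77 in WT ESCs), Nktr, Srsf7, Scaf1 and Tra2a. Srsf7, an SR protein gene, was at 25.5 ± 1.73 in WT ESCs, 43.9 ± 3.63 in WT and 24.6 ± 4.86 in slow/slow PSA-NCAM+ cells, by value only. The single member among SR protein kinases and phosphatases, intron 3 of 12 of Clk4, had group means from 26.7 to 39.7 and passed in no tested comparison.

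Among hnRNP and other splicing repressor genes, 6 of 191 covered introns (3.14%) were members. Hnrnph2 fell from 25.8 ± 3.09 in WT NPCs to 3.24 ± 1.51 in WT neurons and from 22.9 ± 4.31 in slow/slow ESCs to 6.12 ± 0.78 in slow/slow neurons. The intron of Hnrnph3 changed by -10.2 points from slow/slow ESCs to neurons, which was -7.78, -9.59 and -9.19 points without slow/slow ESC replicate 1, slow/slow ESC replicate 3 or slow/slow neuron replicate 2, short of the limit. Hnrpdl was at 57.2 ± 2.25 in WT NPCs and 15.3 ± 1.35 in WT neurons, without a test. The median of the 6 was 24.4 in WT ESCs and 10.5 in WT neurons.

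Other RNA-binding splicing factors held 11 members of 280 covered introns (3.93%), of which 3 or 4 could be tested in each comparison. Besides Cirbp, the intron of Rbm4 fell from 16.9 ± 2.87 in slow/slow ESCs to 2.40 ± 0.86 in slow/slow NPCs. Sfswap, a splicing regulator related to SR proteins, was lower in slow/slow than WT NPCs (11.3 ± 3.42 against 23.1 ± 3.80), and its intron overlaps Gm42979. Its fall of 10.2 points from slow/slow ESCs to neurons was 8.02, 9.35 and 9.94 points without slow/slow ESC replicate 1 or 2 or slow/slow neuron replicate 3. Ccnl2, a cyclin that binds splicing factors, was at 80.4 ± 2.11 in WT NPCs and 59.7 ± 4.17 in slow/slow NPCs, without a test. Core spliceosome genes held 4 members of 653 introns (0.613%), of which an intron of Snrnp48, a protein of the minor spliceosome, changed by -19.8 points from slow/slow ESCs to neurons.

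Among RNA decay and export genes 5 of 499 introns (1.00%) were members. Intron 10 of the mRNA export factor gene Nxf1, an intron known to be retained, was at 44.1 ± 0.81 in WT and 33.2 ± 2.13 in slow/slow NPCs, a difference of -10.9 points that was -9.99 without slow/slow NPC replicate 1. Upf3b, a factor of nonsense-mediated decay, fell from 30.7 ± 3.47 in slow/slow ESCs to 10.7 ± 0.48 in slow/slow neurons. Chromatin regulators held 11 members of 1173 introns (0.938%). All 4 that could be tested between WT NPCs and WT neurons fell, namely Ogt, Atrx, Brd8 and Smarcc2. Of all members tested there 106 of 287 fell, as did 0.45% of all 54690 introns, and 4 introns are too few to set the list apart. The differences for Brd8 and Smarcc2 were -10.4 and -10.1 points. Brd8 was short of the limit without WT NPC replicate 1 (-9.18) or WT neuron replicate 2 (-9.83), and Smarcc2 without WT NPC replicate 1 or 3 or WT neuron replicate 1 or 2 (-8.48 to -9.98).

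RNA polymerase II, elongation and 3′ end processing genes held 3 members of 568 introns (0.528%), in Ccnt2, Cpsf4 and Pcf11, and none could be tested. DNA repair and checkpoint genes held 6 of 687 (0.873%), with an intron of the helicase gene Rtel1 falling from 54.4 ± 1.77 in WT NPCs to 34.5 ± 4.44 in WT neurons. Aminoacyl-tRNA synthetases held 4 of 457 (0.875%), and both members of Sars changed from WT NPCs to WT neurons, by -10.4 and -16.6 points, the former being -8.10 points without WT NPC replicate 1 and -9.95 without WT neuron replicate 2. Neuronal and synaptic genes held 2 of 98 (2.04%), in Scrib and Vamp2. None of 31 covered introns of pluripotency genes was a member. These lists are small, and no test of their shares was made.

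The host genes, the genes that hold the introns, were tested with edgeR on read counts. Of 473 hosts that passed the filter on low counts, 115 were higher and 74 lower in slow/slow than WT ESCs (FDR under 0.05), against 18.5% and 21.9% of 16627 genes. In NPCs 158 were higher and 117 lower (29.3% and 27.4% of all genes), in PSA-NCAM+ cells 141 and 111 (28.6% and 28.1%) and in neurons 125 and 125 (23.4% and 28.4%). Between slow/slow ESCs and NPCs 90 hosts rose and 185 fell (33.9% and 28.4% of genes), and between slow/slow ESCs and neurons 140 rose and 226 fell (44% and 38.4%). Between WT NPCs and WT neurons 184 rose and 176 fell (41.4% and 38.9%).

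In PSA-NCAM+ cells the count of 252 hosts was 71 in a fit of those samples alone and 155 with the replicate number as a block. Without replicate 1 of both genotypes 179 hosts were higher and 134 lower, against 34.1% and 33.9% of 16746 genes. Of the hosts named by size, the largest differences in neurons were in the sugar transporter gene Slc50a1, at 9.24 ± 0.97 CPM in slow/slow and 2.00 ± 0.26 CPM in WT neurons (log2 2.21 ± 0.25, SE, FDR = 4.5e-07), and in the Polycomb gene Cbx7, at 19.3 ± 1.52 and 76.0 ± 3.41 CPM (log2 -1.98 ± 0.12, SE, FDR = 1.4e-10). In NPCs Scrn1 was at 56.9 ± 5.87 CPM in slow/slow and 18.9 ± 0.03 CPM in WT cells (log2 1.59 ± 0.19, SE, FDR = 1.3e-06), and Gabbr1 at 40.5 ± 1.42 and 127 ± 6.55 CPM (log2 -1.64 ± 0.27, SE, FDR = 3.8e-05). In ESCs the angiogenic factor gene Vegfa was at 28.8 ± 2.56 CPM in slow/slow and 72.0 ± 2.61 CPM in WT cells (log2 -1.32 ± 0.26, SE, FDR = 0.00039).

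Across introns, the difference in retention was weakly and inversely related to that in host expression. The difference in PSI was set against the difference in host log2(CPM + 0.5), so that changes of low genes are understated, for 563 introns in 476 hosts with counts. For slow/slow against WT cells Pearson's r was -0.106 for the ESC stage, -0.118 (NPCs), -0.076 (PSA-NCAM+ cells) and -0.052 (neurons), and Spearman's rho was -0.136, -0.112, -0.121 and -0.093. Between stages r was -0.167 for slow/slow NPCs against ESCs, -0.074 for slow/slow neurons against ESCs and -0.115 for WT neurons against NPCs. Without replicate 1 of both genotypes r was -0.091 and rho -0.137 for PSA-NCAM+ cells. All 7 coefficients over all samples were below 0 and none passed 0.17 in size. Introns of a gene share a host and both measures come from the same libraries, so that these values describe the set and carry no p.

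**Figure D5:**
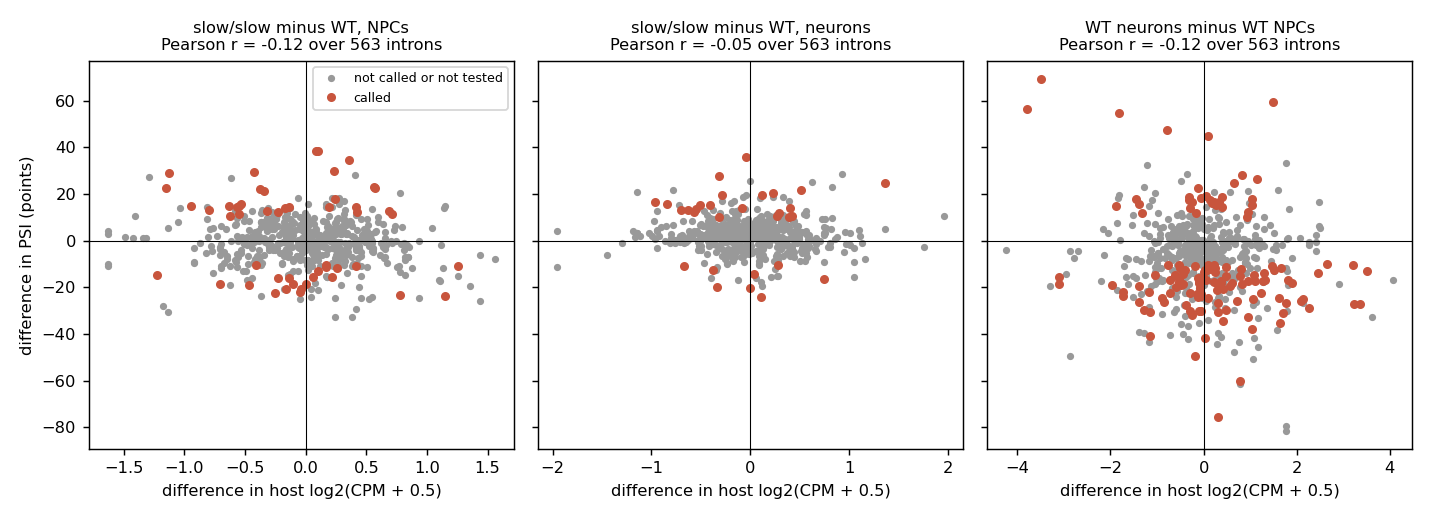
Difference in PSI (points, vertical axis) against difference in host log2(CPM + 0.5) (horizontal axis) for 563 introns with host counts, for slow/slow minus WT NPCs, slow/slow minus WT neurons and WT neurons minus WT NPCs. Red points are introns counted as changed and grey points all others. The points form wide clouds around 0 in each panel, with r of -0.118, -0.052 and -0.115.

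Among introns that changed, the host moved either way. Of 103 introns with host counts that fell from WT NPCs to WT neurons, the host was higher in neurons for 48, lower for 29 and not changed by the test for 26. Of 32 that rose, it was higher for 13, lower for 11 and not changed by the test for 8. In NPCs, of 29 introns higher in slow/slow cells, the host was higher for 9, lower for 12 and not changed by the test for 8. In neurons, of 22 introns higher in slow/slow cells, the host was lower for 10, higher for 6 and not changed by the test for 6. In Vamp2 and Cirbp retention fell and the host rose from WT NPCs to WT neurons (log2 3.24 ± 0.19, SE, FDR = 2.5e-12 and log2 2.15 ± 0.09, SE, FDR = 1.4e-14, edgeR). In Bicd2 both rose (log2 1.49 ± 0.08, SE, FDR = 8.1e-13, edgeR).

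By level, more retained introns had hosts of slightly lower expression. Over 558 introns, Spearman's rho between mean PSI and host CPM was between -0.028 in WT NPCs and -0.229 in WT neurons, and with CPM divided by transcript length in kilobases it was between 0.004 in slow/slow ESCs and -0.136 in slow/slow PSA-NCAM+ cells. In the 208 introns that passed the balance test in all samples, rho with CPM was between -0.156 and -0.330. The coverage limit in all samples keeps introns of low genes out, and its part in these values was not tested.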

How the data were processed

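Poly(A)+ RNA of 24 samples, 3 per group from independent differentiations, had been sequenced and mapped by the authors to mm9. Deposited by the authors were gene-level read counts, not normalized, and PSI (percent of reads with the intron) per event from vast-tools, with corrected read counts and a junction balance p-value in each quality field. Columns with the authors' mean RPKM, log2 fold changes and FDR, and a table of 1 PSI estimate per group, were not used. Library totals were 32974432 to 104466886 counts, and pooled posteriors hold counting error and the spread between the replicates of a group.

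The 584 introns, the gene lists and the tests were chosen with earlier results of these data known. Changes in PSI were called from beta posteriors pooled over replicates (difference over 10 points, posterior over 0.95, at least 15 reads, balance p of at least 0.05). Gene counts were tested over 16627 genes with edgeR 4.0.16 (quasi-likelihood, TMM, Benjamini-Hochberg, 16 residual degrees of freedom) in R 4.3.3. Alternatives used limma 3.58.1 on PSI, DESeq2 1.42.0, other normalizations, filters and thresholds, and the omission of each replicate. The fits of PSA-NCAM+ samples alone and the omission of replicate 1 of both genotypes were added after seeing the data. The main edgeR fit, the limma fit without block or interaction, and the posterior without its balance filter were checked on simulated data. The interaction, replicate block, PSA-NCAM+ and DESeq2 fits were not.

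Same-numbered PSA-NCAM+ samples of both genotypes deviated together (r of 0.54, 0.455 and 0.401 in expression and 0.458, 0.216 and 0.402 in splicing), and their number was taken as a pairing on this evidence from the data. Introns were named by rule: the 10 highest in WT ESCs, the 5 largest changes each way per comparison, those called or highest in each gene list, the hosts with most members, the nearest to the limit and the least variable. For hosts, the 3 largest changes each way per genotype comparison were named. Introns were matched to GENCODE M21 (GRCm38) by chromosome, strand and the exact lengths of the intron and both flanking exons or, failing any match, of the intron and 1 of these exons within a gene of the same symbol, and sequences were taken from its transcripts. Of the members whose genotype difference changed between neurons and PSA-NCAM+ cells, 1 is not reported here.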

Additional observations from a re-analysis of the deposited data

Results flagged for a closer look

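The difference between slow/slow and WT cells was compared between stages by an interaction term in limma, fitted to all covered introns with Benjamini-Hochberg adjustment. Differences are given as the genotype difference in neurons minus that at the other stage, in PSI points. An intron was counted when the adjusted p was under 0.05 and the difference exceeded 10 points. Neurons and NPCs differed in 22 of 255 members tested (95 at an unadjusted p under 0.05), against 71 of all 53406 introns tested. Neurons and PSA-NCAM+ cells differed in 17 of 257 members (102 at an unadjusted p), against 53 of 52300 introns. Between PSA-NCAM+ cells and NPCs 0 of 254 members differed by limma (58 at an unadjusted p), and 0 of 52248 introns. Both sets of differences use the same neuron samples.

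Against NPCs, the genotype difference in neurons was lower for Rnf20 (-50.44), Yipf2 (-42.07), Cyb5r1 (-39.26), 0610011F06Rik (-34.82), Klc3 (-31.83), Hexdc (-28.11), Deb1 (-22.27), H2-Ke6 (-22.17), an intron of Gtpbp2 other than that without a stop (-19.7), Trub2 (-18.74), Med22 (-16.61) and Hap1 (-13.71). It was higher for Stk25 (14.52), 9430015G10Rik (14.7), Leng8 (15.81), Dab2ip (19.58), Trim3 (22.82), Ikbkb (27.25), Atrx (29.24), 2310022A10Rik (31.01), Ttc14 (36.04) and Ogt (39.78). In Rnf20 the genotype difference was 29.9 points in NPCs and -20.5 points in neurons, and the interaction had an adjusted p of 0.000153 in limma. The introns of Yipf2 and Klc3 overlap Carm1 and Ercc2, and the part of those genes' reads was not tested.

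Against PSA-NCAM+ cells, it was lower for Yipf2 (-40.02), Rnf20 (-27.08), 0610011F06Rik (-24.63), Bace1 (-22.68), Deb1 (-19.92) and Klc3 (-18.25). It was higher for Gabbr1 (11.78), Stk25 (12.42), Atrx (13.83), Fbxl6 (13.9), Fbxw5 (14.45), Cep250 (20.86), Trim3 (23.84), 2310022A10Rik (26.85), Sars (26.88) and Ogt (35.22).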

How the results depend on the processing

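Retention changes depended on the balance filter and on the size and certainty asked of a difference. No changed member had the opposite sign under the alternatives to the posterior, an outcome fixed by the way changes were called. Other limits left each difference as it was, and leaving out a replicate cannot reverse samples that do not overlap. The unchanged signs are therefore no support. Of host log2 changes, 1 value in neurons and 14 for WT neurons against NPCs changed sign, all under upper quartile scaling and in hosts not named. Without the balance filter the changed members numbered 113 (NPCs), 38 (PSA-NCAM+ cells) and 61 (neurons) between genotypes, 50 and 222 for slow/slow NPCs and neurons against ESCs, and 279 for WT neurons against NPCs. With a difference over 15 points the changed members numbered 31, 7, 16 and 9 for the genotype comparisons of these stages and for slow/slow NPCs against ESCs. Over all introns, 27 were higher and 23 lower of 55020, 9 and 1 of 53613, 15 and 14 of 55684 and 2 and 10 of 55393. With a posterior over 0.99 the changed members numbered 34 in NPCs, 4 in PSA-NCAM+ cells, 11 for slow/slow NPCs and 66 for slow/slow neurons against ESCs. Over all introns, 37 were higher and 22 lower of 55020, 3 and 2 of 53613, 2 and 14 of 55393 and 58 and 94 of 55332. With limma the changed members numbered 32, 8 and 16 between genotypes at these stages and 5 for slow/slow NPCs against ESCs. Over all introns, 40 were higher and 25 lower of 55020, 12 and 4 of 53613, 30 and 18 of 55684 and 3 and 8 of 55393. Samples at the other stages shared only a number. With the replicate block, limma called 20 members in neurons, 9 for slow/slow NPCs against ESCs, 39 in NPCs and 10 in PSA-NCAM+ cells. Over all introns, 33 were higher and 19 lower of 55684, 3 and 14 of 55393, 46 and 34 of 55020 and 12 and 6 of 53613.

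In PSA-NCAM+ cells alone limma called 0 members (55 at an unadjusted p under 0.05), and 6 with the replicate block that pairs these samples, and edgeR called 71 and 155 hosts. Among all 53613 introns limma called 0 without the block, and 8 higher and 3 lower with it. The share of all genes called in these edgeR fits is not given. Without replicate 1 of both genotypes 34 members changed, against 32 higher and 23 lower of 55695 introns. Leaving out 1 replicate gave 54 to 64 changed members for NPCs, 15 to 34 for PSA-NCAM+ cells (29 without slow/slow replicate 1 and 23 without WT replicate 2, the upper end being replicate 1 of both genotypes), 32 to 40 for neurons, 18 to 23 and 97 to 111 for slow/slow NPCs and neurons against ESCs, and 134 to 148 for WT neurons against NPCs. Over all introns tested, 57 to 72 were then higher and 59 to 65 lower for NPCs. The counts were 17 to 32 and 3 to 26 for PSA-NCAM+ cells, and 38 to 68 and 26 to 34 for neurons. For slow/slow NPCs and neurons against ESCs they were 7 to 12 and 24 to 29, and 79 to 97 and 137 to 174. For WT neurons against NPCs they were 118 to 137 and 241 to 277. Leaving out a replicate gave 206 to 313 hosts in PSA-NCAM+ cells (the upper end being replicate 1 of both genotypes) and 580 to 633 members. At that upper end 34.1% of 16746 genes were higher and 33.9% lower.

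The number of members was 223 with reads and balance asked in all samples, 974 at a PSI limit of 15 and 289 at 30. The median in WT NPCs was 29.72 with 1 intron per host. The correlation with host expression was -0.162 for ESCs in introns passing the filters, and Spearman's rho for WT neurons against NPCs was -0.055. Of 821 values of named introns under alternatives other than leaving out a replicate, 115 fell short of the limits, and of 814 on leaving out a replicate 35 did. All 150 and 132 such values of named hosts kept their call. The pooled posterior widens with the spread between replicates but is not a test over them, and 223 members passed the balance test in all samples.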
